A study of Mus musculus with 2 samples.

Results

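A set of 6 genes whose proteins shorten the life of other mRNAs, Zfp36, Zfp36l1, Zfp36l2, Zc3h12a, Btg1 and Btg2, was followed across lymphocytes of the mouse small intestine that carry the IL-23 receptor. The 6 genes were taken by symbol from the 32285 genes of the deposited feature table, and all 6 were present. The cells came from mice with the genotype Il23r-eGFP, a reporter whose green fluorescence follows expression of the receptor for the cytokine IL-23. Live eGFP+ cells of the small intestine, with Peyer's patches and epithelium taken away beforehand, were sorted and run on 10x Genomics droplets as 2 libraries. The IL-23 stimulated library held cells given recombinant mouse IL-23 for 2 hours, and the unstimulated library held cells labelled as not given it, although the stimulation step is written in the protocol of each. Both libraries share the reporter genotype, tissue and enzymatic digestion. The labels do not give the number or age of the mice, nor how long the unstimulated cells were held before capture. Each group was 1 library, so no difference was tested, and each interval below is a 95% interval that covers counting error only.

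ZFP36 (tristetraprolin) and its relatives ZFP36L1 and ZFP36L2 bind AU-rich stretches in the 3′ untranslated region (UTR) of mRNAs, many of them cytokine mRNAs, and recruit the CCR4-NOT complex, which removes the poly(A) tail. Zc3h12a encodes Regnase-1, an endonuclease that cuts stem-loops in the 3′ UTR of inflammatory mRNAs. BTG1 and BTG2 bind poly(A)-binding protein and the CAF1 deadenylase of CCR4-NOT, speed up general shortening of poly(A) tails, and are known in mice for keeping T cells quiescent. Zfp36 and Btg2 are also classical early response genes, whose mRNAs appear quickly after many stimuli and after tissue digestion.

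The AU-rich sites that the ZFP36 proteins read were set out first, because later values are ordered by them. In the windows below, read 5′ to 3′ from the mRNA strand of GRCm38, capitals mark each TATTTAT, the 7-base core of an AU-rich element. Each window is the 30-base stretch with the most such sites in the longest annotated 3′ UTR of its gene, and overlapping sites were counted separately. The first lines are inflammatory mRNAs whose UTRs hold 6 or more sites.
Tnf (chr17:35199678-35199707, minus strand): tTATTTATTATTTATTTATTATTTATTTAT
Csf2 (chr11:54247325-54247354, minus strand): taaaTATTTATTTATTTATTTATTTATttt
Cxcl1 (chr5:90892606-90892635, plus strand): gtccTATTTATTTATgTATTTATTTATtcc
Cxcl2 (chr5:90905325-90905354, plus strand): ctTATTTATTTATctatgTATTTATTTATt
Ptgs2 (chr1:150105789-150105818, plus strand): actgaccaTATTTATTTATTTATgtgaaga
The division at 6 sites was chosen after the levels were seen. Vegfa and Ccl4 hold fewer sites and had lower levels in IL-23 stimulated than in unstimulated CD3- cells, and are not shown. The next lines are effector cytokines whose UTRs hold fewer than 6 sites.
Il22 (chr10:118209883-118209912, plus strand): tTATTTATtataagtatacatttTATTTAT
Il17a (chr1:20734197-20734226, plus strand): gcctaTATTTATatgagcTATTTATgaatc
Il17f (chr1:20777243-20777272, minus strand): taaactattataTATTTATgttggtagggg
Ifng (chr10:118445332-118445361, plus strand): ccTATTTATtaatatttaaaacTATTTATa
Il6 (chr5:30019727-30019756, plus strand): atttatgattgaTATTTATtatttttatga
The last lines are the decay genes that hold such a site in their own mRNA.
Zfp36 (chr7:28376958-28376987, minus strand): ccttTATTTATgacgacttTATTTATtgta
Zfp36l1 (chr12:80108422-80108451, minus strand): cttatcaaaacgTATTTATtgccaaactat
Zfp36l2 (chr17:84184914-84184943, minus strand): aactatttaactTATTTATtatcttgtgaa
Btg2 (chr1:134077249-134077278, minus strand): aaaatgaagagcTATTTATacatgtttttt

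All 3 ZFP36 family mRNAs carried 3 of these sites each, in 3′ UTRs of 774 bases for Zfp36, 1835 bases for Zfp36l1 and 1822 bases for Zfp36l2. Btg2 carried 1 in 2199 bases, while Zc3h12a had 0 in 856 bases and Btg1 had 0 in 4166 bases. Of the 6780 genes measured in CD3- cells with an annotated 3′ UTR, 32.7% held 1 site or more and 4.78% held 3 or more. A match is a stretch of letters, and binding was not measured here.

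The genes lie apart in the genome. On GRCm38, Zfp36 (ENSMUSG00000044786) spans chr7:28376784-28380253, Zfp36l1 (ENSMUSG00000021127) chr12:80107754-80113013 and Zfp36l2 (ENSMUSG00000045817) chr17:84183931-84187947. Zc3h12a (ENSMUSG00000042677) spans chr4:125118423-125127840, Btg1 (ENSMUSG00000036478) chr10:96617006-96622809 and Btg2 (ENSMUSG00000020423) chr1:134075170-134079120. Only Btg1 is on the plus strand.

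Barcodes counted as cells from 500 detected genes up, provided that mitochondrial genes took no more than 10% of their UMIs (unique molecular identifiers, 1 per captured mRNA). That left 9251 of 10440 barcodes in the IL-23 stimulated library (61359895 UMIs, median 6087) and 10790 of 11096 in the unstimulated library (58148889 UMIs, median 4928). The libraries shared 25 kept barcodes. Cells were classed by their own transcripts. CD3- cells had no UMI of Cd3e, Cd3d or Cd3g, and numbered 8583 in the IL-23 stimulated and 10075 in the unstimulated library. Among them, 1258 and 1052 had Ncr1, the gene of the receptor NKp46. A further 1464 and 1535 had Ccr6, a chemokine receptor of lymphoid tissue inducer-like cells, and 5802 and 7440 had neither marker. Cells with neither marker can include cells whose Ncr1 or Ccr6 mRNA was not captured, so they are not a separate cell type. Their median depth was lower, at 5698.5 and 4675.5 UMIs, against 7286.5 and 5925.5 in Ncr1+ and 6220 and 4995 in Ccr6+ cells. Cells with Cd3e and the T cell receptor constant gene Trdc numbered 221 and 232, and those with Cd3e and Trac 99 and 163. The 407 IL-23 stimulated and 368 unstimulated cells outside these classes, 59 and 48 of them CD3- with both Ncr1 and Ccr6, were not placed in a class. All 10 listed genes of group 3 innate lymphoid cells (ILC3s) were measured in CD3- cells, with a summed level of 2106 CPM in IL-23 stimulated and 1926 CPM in unstimulated cells. T cell markers, 2 of 10 measured (Trbc1 and Trbc2) and Cd3e, Cd3d and Cd3g at 0 by the class rule, summed there to 372 and 489 CPM. B and plasma cell markers, 1 of 8 measured (Jchain), summed to 70.3 and 198 CPM, macrophage and dendritic markers to 8.85 and 12.5 CPM, and epithelial markers to 10.3 and 7.86 CPM. Jchain differed by class, with 0.908 CPM in IL-23 stimulated and 207 CPM in unstimulated Ncr1+ CD3- cells, 242 and 6.04 CPM in Ccr6+ CD3- cells, and 15.5 and 215 CPM in CD3- cells with neither marker. Leaving out cells with markers of other cell types was among the settings tried, given at the end. Beyond that, the part of these markers in the results was not tested.

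Levels are given as CPM, counts per 1000000 UMIs of the class, and every fold is the quotient of the IL-23 stimulated over the unstimulated CPM. CPM are not scaled to transcript length, so levels are compared for 1 gene at a time. A gene counted as higher or lower at a fold of at least 1.5 in that direction, a size and not a test. In CD3- cells, 2 of the 6 genes were higher after IL-23, Zfp36 and Btg1, and 0 were lower. Among 6996 measured genes of these cells, 3.96% were higher and 3.59% were lower. The median log2 fold of the 6 genes was 0.47, beside -0.11 for all measured genes. Scaling by TMM factors (trimmed mean of M-values) moved all log2 folds in CD3- cells up by 0.11, and the calls over all genes were then 346 higher and 150 lower, against 277 higher and 251 lower with class totals.

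**Figure D1:**
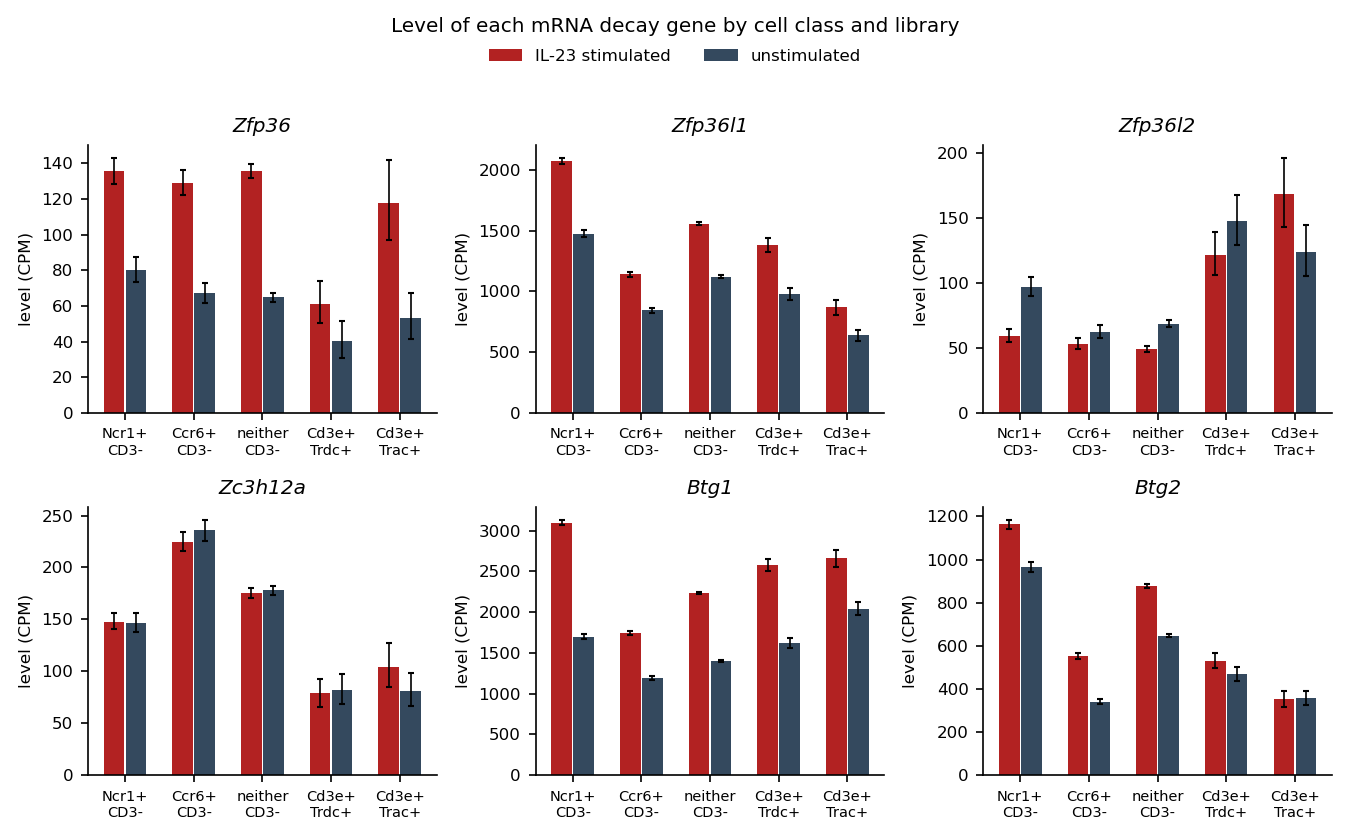
Level of each decay gene in CPM (y axis, from 0, own scale per gene) in 5 cell classes (x axis), with IL-23 stimulated cells in red and unstimulated cells in dark blue. Bars are class sums and error bars are exact Poisson 95% intervals. Zfp36, Zfp36l1 and Btg1 bars are taller for IL-23 stimulated cells in all 5 classes.

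Zfp36 encodes tristetraprolin, the founding member of its family. It stood at 136 CPM in IL-23 stimulated and 80.3 CPM in unstimulated Ncr1+ CD3- cells. Ccr6+ CD3- cells had 129 and 67.1 CPM, and CD3- cells with neither marker had 136 and 64.8 CPM. In every class the 2 intervals did not overlap, except in Cd3e+ Trdc+ cells, where 61.4 CPM in IL-23 stimulated and 40.2 CPM in unstimulated cells had overlapping intervals. Cd3e+ Trac+ cells had 118 and 53.2 CPM. The folds were 1.69 (1.53 to 1.87) in Ncr1+, 1.92 in Ccr6+ and 2.09 in the remaining CD3- cells, 1.53 (1.11 to 2.11) in Cd3e+ Trdc+ and 2.22 (1.62 to 3.04) in Cd3e+ Trac+ cells. Zfp36 thus passed the 1.5-fold size in 5 of 5 classes, though not in every setting. It fell short at 1.47 in Ncr1+ cells of 2 or more Ncr1 UMIs. In Cd3e+ Trdc+ cells it fell short at 1.43 when cells were weighted equally and at 1.41 when cells with both Trdc and Trac were counted. In Cd3e+ Trac+ cells it fell to 1.32 in cells without Fos and Egr1. In the T cell classes these values rest on few cells, with 64 UMIs of Zfp36 in the smallest sum.

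Zfp36 mRNA was found in more cells as well. After each cell was thinned to 2000 UMIs, 17.96% of IL-23 stimulated CD3- cells had a Zfp36 UMI, against 9.14% of unstimulated ones, with 320 and 394 shallower cells left out. Without thinning the shares were 37.1% and 17.8%. No class in these libraries is known to lack any of the 6 genes, so no background share was available. Cells with 5 or more thinned UMIs made up 0.351% of IL-23 stimulated and 0.176% of unstimulated CD3- cells. Without thinning, which removes UMIs, they made up 3.84% and 1.03%, so Zfp36 was mostly seen as a few captured molecules per cell.

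Across classes, Zfp36 in the IL-23 stimulated library was alike in the Ncr1+, Ccr6+, remaining CD3- and Cd3e+ Trac+ cells, whose neighbouring intervals overlapped, and lower in Cd3e+ Trdc+ cells. In the unstimulated library Ncr1+ CD3- cells had the highest level, above Ccr6+ cells beyond counting error. From highest to lowest class the level differed 2.21-fold in the IL-23 stimulated and 2.00-fold in the unstimulated library.

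Zfp36l1, known for restraining the cell cycle in developing lymphocytes of mice, showed an even difference over classes. Its level was 2072 CPM in IL-23 stimulated and 1473 CPM in unstimulated Ncr1+ CD3- cells, 1142 and 844 CPM in Ccr6+ CD3- cells, and 1556 and 1119 CPM in CD3- cells with neither marker. Cd3e+ Trdc+ cells had 1379 and 974 CPM, and Cd3e+ Trac+ cells 868 and 637 CPM. All 5 folds lay between 1.35 and 1.42, under the 1.5-fold size, and no interval reached 1. With TMM scaling 1 of the 5 crossed 1.5, at 1.52 in Ncr1+ CD3- cells, as did the CD3- cells as a whole, at 1.51. The order of the classes was the same in both libraries, with Ncr1+ CD3- cells first, then CD3- cells with neither marker, Cd3e+ Trdc+, Ccr6+ CD3- and Cd3e+ Trac+ cells. Each class in that order stood above the next beyond counting error in both libraries. The share of thinned CD3- cells with a UMI was 84.7% in IL-23 stimulated and 78.4% in unstimulated cells, and 22.5% and 11.5% had 5 UMIs or more.

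Zfp36l2, which in mice is needed with Zfp36l1 for normal thymocyte and B cell development, went the other way in innate cells. Ncr1+ CD3- cells had 59.3 CPM in the IL-23 stimulated and 97.0 CPM in the unstimulated library, a fold of 0.611 (0.546 to 0.683). It was the 1 member of 6 called lower in that class, where 7.26% of 6890 measured genes were lower and 5.18% higher. That call rests near the threshold, since the fold was 0.683 with cells weighted equally, 0.702 with 2 or more Ncr1 UMIs and 0.716 in cells without Fos and Egr1. Ccr6+ CD3- cells had 53.1 and 62.3 CPM (fold 0.852) and CD3- cells with neither marker 49.3 and 68.3 CPM (fold 0.722). In the T cell classes the values did not follow 1 direction. Cd3e+ Trdc+ cells had 122 CPM in IL-23 stimulated and 147 CPM in unstimulated cells (fold 0.827, 0.683 to 1.000), whereas Cd3e+ Trac+ cells had 168 and 124 CPM (fold 1.36, 1.08 to 1.70). Thinned CD3- cells held a Zfp36l2 UMI in 8.07% of IL-23 stimulated and 11.2% of unstimulated cells. Thinned Cd3e+ Trac+ cells held it in 17.3% and 18.1%, with overlapping intervals.

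T cells had more Zfp36l2 than innate cells in both libraries. In the IL-23 stimulated library Cd3e+ Trac+ cells stood above Cd3e+ Trdc+ cells, which stood above all 3 CD3- classes. Among those, Ncr1+ cells overlapped Ccr6+ cells in their intervals but lay above CD3- cells with neither marker. In the unstimulated library the T cell classes overlapped each other, both above Ncr1+ CD3- cells, which in turn were above the other two CD3- classes. The highest class was 3.40-fold above the lowest in the IL-23 stimulated and 2.36-fold in the unstimulated library. In the 3 CD3- classes Zfp36 folds lay above 1 and Zfp36l2 folds below 1, as the plot of folds by class shows.

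**Figure D2:**
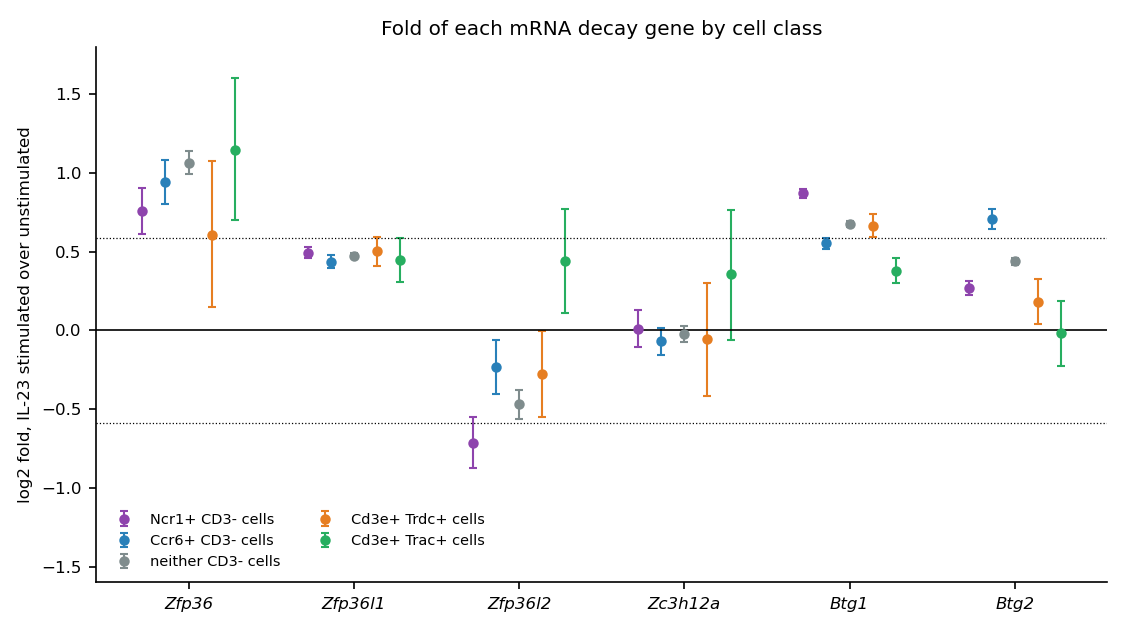
Log2 fold of each decay gene, IL-23 stimulated over unstimulated (y axis), with 1 point per cell class and exact 95% intervals of counting error. The solid line is no difference and dotted lines are 1.5-fold; Zfp36 points lie between 1.53-fold and 2.22-fold, whereas Zfp36l2 points lie below the solid line except in Cd3e+ Trac+ cells.

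Zc3h12a, the gene of Regnase-1, was close to level. CD3- cells had 180 CPM in the IL-23 stimulated and 184 CPM in the unstimulated library, a fold of 0.977 (0.950 to 1.004). Ncr1+ CD3- cells had 148 and 147 CPM, Ccr6+ CD3- cells 225 and 236 CPM, and CD3- cells with neither marker 175 and 178 CPM. Cd3e+ Trdc+ cells had 78.6 and 81.7 CPM. Intervals of these folds included 1, and in each of these classes the alternatives in processing gave values on both sides of 1, so no direction is given. Cd3e+ Trac+ cells had 104 and 81.4 CPM, with an interval from 0.961 to 1.70. What varied was the cell class. In both libraries Ccr6+ CD3- cells had the most Zc3h12a, then CD3- cells with neither marker, then Ncr1+ CD3- cells, each above the next beyond counting error, and both T cell classes were lowest. The spread from highest to lowest class was 2.86-fold in the IL-23 stimulated and 2.90-fold in the unstimulated library. This order of the CD3- classes is the reverse of that of Zfp36l1.

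Btg1, an adaptor between poly(A)-binding protein and the deadenylase, was called higher alongside Zfp36. It had 3101 CPM in IL-23 stimulated and 1696 CPM in unstimulated Ncr1+ CD3- cells, a fold of 1.83. CD3- cells with neither marker had 2233 and 1398 CPM (fold 1.60), and Cd3e+ Trdc+ cells 2576 and 1623 CPM (fold 1.59). The fold was under the 1.5-fold size in Ccr6+ CD3- cells, with 1746 and 1189 CPM (1.47), and in Cd3e+ Trac+ cells, with 2660 and 2044 CPM (1.30). In Ccr6+ cells the value sat at the threshold and reached 1.58 with TMM scaling. In all 5 classes the intervals of the 2 libraries did not overlap. Ncr1+ CD3- cells were highest in the IL-23 stimulated library, and Cd3e+ Trac+ cells in the unstimulated library. In thinned CD3- cells, 39.9% of IL-23 stimulated and 17.7% of unstimulated cells had 5 or more Btg1 UMIs, a wider gap than the 94.0% and 87.7% with 1 or more.

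Btg2, the second adaptor of the pair and a target of p53 in mouse and human cells, was uneven over classes. The only class past the 1.5-fold size was Ccr6+ CD3- cells, with 553 CPM in IL-23 stimulated and 339 CPM in unstimulated cells (fold 1.63). That call was lost when these cells were split by Fos and Egr1, 2 other early response genes, with folds of 1.46 in cells with neither and 1.49 in cells with Fos or Egr1. Ncr1+ CD3- cells had 1164 and 966 CPM (fold 1.20), and CD3- cells with neither marker 877 and 647 CPM (fold 1.36). In cells without Fos and Egr1 these 2 classes had folds of 1.003 and 1.18, and in cells with Fos or Egr1 1.27 and 1.37. The T cell classes gave no direction that held over settings, with 531 and 468 CPM in Cd3e+ Trdc+ and 352 and 356 CPM in Cd3e+ Trac+ cells. Ccr6+ CD3- cells had the lowest Btg2 among CD3- cells in both libraries, so the class with the widest Btg2 fold also had the lowest unstimulated level among them.

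Counts of members by class can be read against their backgrounds. In Ncr1+ CD3- cells 2 were higher (Zfp36, Btg1) and 1 lower (Zfp36l2). In Ccr6+ CD3- cells 2 were higher (Zfp36, Btg2), where 2.88% of all measured genes were higher and 4.33% lower. CD3- cells with neither marker had 2 higher, Zfp36 and Btg1, against 4.09% higher and 3.89% lower of all genes. Cd3e+ Trdc+ cells had the same 2, beside 8.14% higher and 10.7% lower. Cd3e+ Trac+ cells had 1 higher, Zfp36, beside 7.90% higher and 12.6% lower. The median log2 fold of the 6 genes was 0.38, 0.49, 0.46, 0.34 and 0.41 in these classes in the order given, while that of all genes was between -0.12 and -0.062. With 6 members, a single gene shifts these counts.

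Tissue digestion and handling are known to induce early response genes, so the levels were set beside Fos and Egr1, an AP-1 and a zinc finger factor of the same early response. In IL-23 stimulated CD3- cells, Zfp36 stood at 178 CPM in the 4887 cells with a UMI of either gene and 69.3 CPM in the 3696 cells with none. In unstimulated CD3- cells it stood at 102 CPM in 4946 cells with and 28.8 CPM in 5129 cells without. Zfp36 mRNA was therefore concentrated in cells with Fos or Egr1 in both libraries, 2.57-fold in the first and 3.54-fold in the second. In CD3- cells as a whole the difference between the libraries was present on both sides of this split, at 1.74-fold in cells with Fos or Egr1 and 2.41-fold in cells with neither. By class it was uneven. In Ncr1+ CD3- cells the Zfp36 fold was 1.53 with Fos or Egr1 and 2.40 without, in Ccr6+ CD3- cells 1.498 and 3.09, and in Cd3e+ Trdc+ cells 1.17 and 2.99. In Cd3e+ Trac+ cells it was 2.56 with and 1.32 without. Median depths of cells with and without were close, at 6065 and 5969 UMIs in IL-23 stimulated and 5025 and 4717 UMIs in unstimulated CD3- cells.

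Btg2 and Zfp36l2 were also higher in cells with Fos or Egr1. Btg2 had 1076 CPM with and 548 CPM without in IL-23 stimulated CD3- cells, and 791 and 465 CPM in unstimulated ones. Zfp36l2 had 63.0 and 34.9 CPM in IL-23 stimulated and 89.9 and 50.5 CPM in unstimulated cells, so its lower level after IL-23 was seen on both sides. Zc3h12a was 1.38-fold and Zfp36l1 1.06-fold higher with Fos or Egr1 in the IL-23 stimulated library. Btg1 was nearly level, with 2287 CPM with and 2309 CPM without in IL-23 stimulated, and 1406 and 1399 CPM in unstimulated cells. The 16 listed early response and heat shock genes as a group summed to 8005 CPM in IL-23 stimulated and 7738 CPM in unstimulated CD3- cells. Of these 16, 0 were higher and 1 was lower, Nr4a1, with a median log2 fold of -0.010. The classes differed, with 6 of 16 lower and 0 higher in Ncr1+ CD3- cells (median -0.21), 3 lower and 1 higher, Egr1, in Ccr6+ CD3- cells, and 1 lower in CD3- cells with neither marker. Egr1 had 9.49 CPM in IL-23 stimulated and 24.4 CPM in unstimulated Ncr1+ CD3- cells, and 38.7 and 25.3 CPM in Ccr6+ CD3- cells. Their part in the Zfp36 and Btg2 values was not tested.

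**Figure D3:**
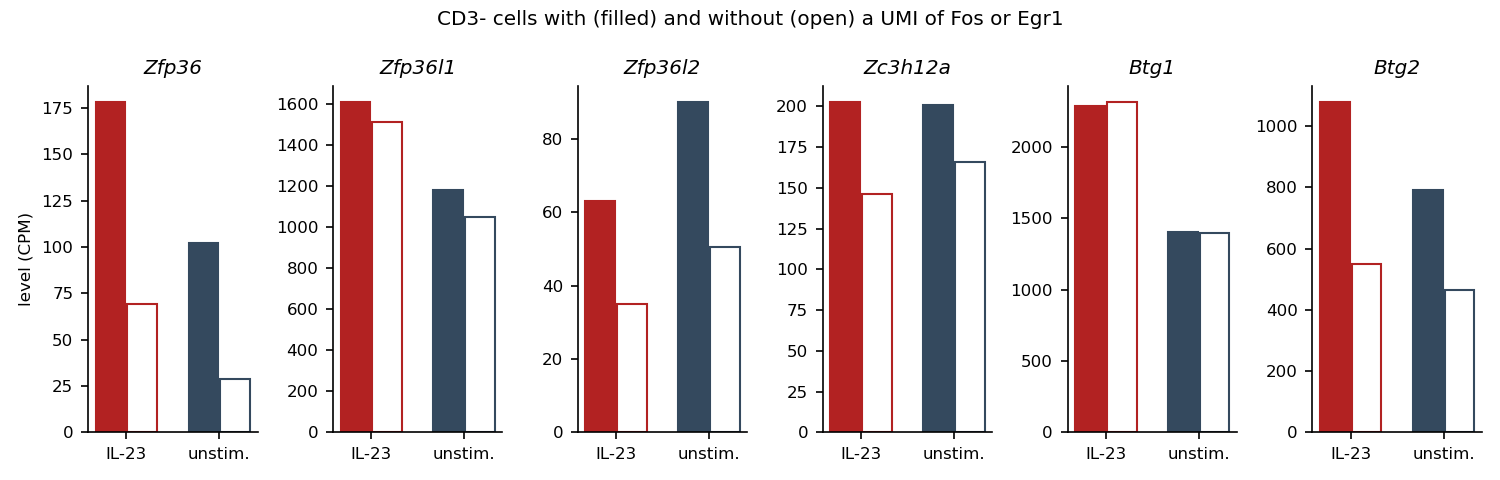
Level of each decay gene in CPM (y axis, from 0) in CD3- cells with a UMI of Fos or Egr1 (filled bars) and without either (open bars), for IL-23 stimulated (red) and unstimulated (dark blue) cells. Zfp36 is 178 and 69.3 CPM in the IL-23 stimulated pair and 102 and 28.8 CPM in the unstimulated pair, whereas the Btg1 bars of each pair are nearly equal.

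The same pairing was seen cell by cell after thinning to 2000 UMIs. Among IL-23 stimulated CD3- cells, 50.3% of those with a Zfp36 UMI also had Fos, against 34.1% of those without. Among unstimulated cells the shares were 55.4% and 32.1%. For Btg2 they were 44.0% and 22.6% in IL-23 stimulated and 40.6% and 25.6% in unstimulated cells. Cells with Zfp36 also held Btg2 more often, at 74.5% against 65.4% in IL-23 stimulated and 67.2% against 56.8% in unstimulated cells.

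The promoter of Zfp36 was searched for the motifs of STAT factors, which signal for IL-23, and of SRF, the factor of the early response. Promoters of 5 of the 6 genes, from RefSeq on GRCm38.p6, were matched by symbol, and 250 bases before the start were searched on both strands for TTCNNNGAA and for the CArG box. Only Zfp36 held a match, 1 of each. Of 32851 promoters of all genes, 7.02% held TTCNNNGAA and 1.47% held a CArG box. The 100 bases before its start are shown because both matches lie there, in capitals, the CArG box first and TTCNNNGAA nearer the start.
Zfp36 promoter (chr7:28379229-28379328, minus strand): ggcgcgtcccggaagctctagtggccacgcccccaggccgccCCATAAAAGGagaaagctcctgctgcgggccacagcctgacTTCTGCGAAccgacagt
The RefSeq start used here lies inside the GENCODE gene span. Promoters of Zfp36l1, Zc3h12a, Btg1 and Btg2 held neither string in their windows. No factor was mapped to DNA in these libraries.

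Relatives and partners of the 6 genes stayed closer to level in CD3- cells. Of 11 relatives, which include the TOB and Roquin genes, 7 were measured and 1 was higher, Zc3h12c. This gene of the Regnase family had 21.1 CPM in IL-23 stimulated and 12.9 CPM in unstimulated CD3- cells (fold 1.63), and 52.6 and 29.5 CPM in Ccr6+ CD3- cells (fold 1.78). Tob2, another adaptor of the deadenylase, had 304 and 414 CPM (fold 0.735). The median log2 fold of measured relatives was -0.17. All 12 CCR4-NOT genes were measured and 0 were past 1.5-fold in either direction, with a median of -0.12. Cnot7, the CAF1 deadenylase that BTG proteins bind, had 70.7 CPM in IL-23 stimulated and 74.9 CPM in unstimulated cells. Cnot1, the scaffold that ZFP36 proteins bind, had 163 and 187 CPM. Of 22 poly(A) and decapping genes 19 were measured, and of 12 exosome genes 11, with 0 past the size in either list and medians of -0.11 and -0.10. These medians sit at that of all genes, -0.11.

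Among 10 other AU-rich or 3′ UTR binding proteins, all measured, 1 was higher. That gene was Arid5a, whose protein in mice protects Il6 mRNA from Regnase-1. It had 485 CPM in IL-23 stimulated and 185 CPM in unstimulated CD3- cells, a fold of 2.62 (2.56 to 2.68). Ncr1+ CD3- cells had 519 and 143 CPM (3.63), Ccr6+ CD3- cells 449 and 214 CPM (2.10), and CD3- cells with neither marker 486 and 186 CPM (2.62). Cd3e+ Trdc+ cells had 364 and 113 CPM (3.24) and Cd3e+ Trac+ cells 354 and 141 CPM (2.51). Arid5a therefore passed the size in all 5 classes. Elavl1, which encodes the stabilizing AU-rich binder HuR, had 159 and 135 CPM (1.18) in CD3- cells. Of 14 genes that signal to the members, 13 were measured and 0 passed the size. Mapkapk2, the kinase that phosphorylates ZFP36, had 355 and 315 CPM (1.13), and Malt1, the protease that cleaves Regnase-1, 29.7 and 29.2 CPM.

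Cytokine and other mRNAs known as targets were then set beside the decay genes. Of 23 listed AU-rich targets, 14 were measured in CD3- cells, of which 6 were higher and 2 lower, with a median log2 fold of 0.13. Of all measured genes there, 3.96% were higher and 3.59% lower. Il6, Ifng, Myc and Lif reached the 10 CPM needed for measuring only in the IL-23 stimulated library, and Cxcl1 only in the unstimulated one. A gene that passes in 1 library only can lie in no other direction, so the direction of those genes is not a finding. Il22, the leading ILC3 cytokine, had 26662 CPM in IL-23 stimulated and 5845 CPM in unstimulated CD3- cells (fold 4.56). Il17a had 306 and 25.3 CPM (12.1), Il6 20.8 and 2.12 CPM (9.83), Ifng 15.6 and 2.50 CPM (6.27), Myc 25.4 and 5.16 CPM (4.93) and Lif 15.2 and 7.71 CPM (1.97). These cytokine and growth gene mRNAs were higher in the same class of cells in which Zfp36 and Btg1 were higher. The 2 targets called lower were Cxcl1, a neutrophil chemokine, with 6.14 CPM in IL-23 stimulated and 11.6 CPM in unstimulated cells (0.528), and Tnf, with 26.9 and 41.4 CPM (0.650). Csf2, the gene of GM-CSF, had 20.6 and 29.5 CPM (0.697, 0.645 to 0.752).

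Il22 was higher in every class, at 29970 CPM in IL-23 stimulated and 4722 CPM in unstimulated Ncr1+ CD3- cells (6.35), 25466 and 7478 CPM in Ccr6+ CD3- cells (3.41), and 25975 and 5636 CPM in CD3- cells with neither marker (4.61). Cd3e+ Trdc+ cells had 13147 and 1897 CPM (6.93), and Cd3e+ Trac+ cells 7684 and 1068 CPM (7.19). Il17a ranged from 1.52-fold in Cd3e+ Trac+ cells, with 660 and 433 CPM, to 22.5-fold in Ncr1+ CD3- cells, with 141 and 6.26 CPM. Il17f had 738 CPM in IL-23 stimulated and 95.03 CPM in unstimulated CD3- cells (7.76). In the IL-23 stimulated library Ifng was highest in Ncr1+ CD3- cells, at 48.9 CPM. In the unstimulated library they had 7.27 CPM, against 14.1 CPM in Cd3e+ Trac+ cells, which had 21.2 CPM after IL-23. Csf2 in Ncr1+ CD3- cells had 20.0 CPM in IL-23 stimulated and 60.4 CPM in unstimulated cells, a fold of 0.331 (0.278 to 0.393). Zfp36l2 also had its lowest fold in this class.

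The measured AU-rich targets differed by the number of sites in their 3′ UTR. Csf2 held 9 TATTTAT sites, Tnf 8, Cxcl2 7, and Cxcl1 and Ptgs2 6 each. Those 5 mRNAs with 6 sites or more had folds between 0.528 and 0.741, all below 1. Cxcl2, another neutrophil chemokine, had 297 CPM in IL-23 stimulated and 400 CPM in unstimulated CD3- cells, and Ptgs2, the gene of cyclooxygenase-2, 127 and 173 CPM. Of the 9 targets with fewer sites, 7 had folds above 1 and 2 below, with a median log2 fold of 2.19. Those below were Vegfa (85.5 and 104 CPM, 3 sites) and Ccl4 (22.4 and 26.5 CPM, 1 site). Lif, just under the division with 5 sites, had a fold of 1.97. Il22 and Ifng held 4 sites each, Il17a 3, Il6 1 and Myc 0. The division at 6 sites was chosen after these values were seen, and it is a description with no test. Il6, Ifng, Myc and Lif were measured through the IL-23 stimulated library alone, and Cxcl1 through the unstimulated library alone.

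**Figure D4:**
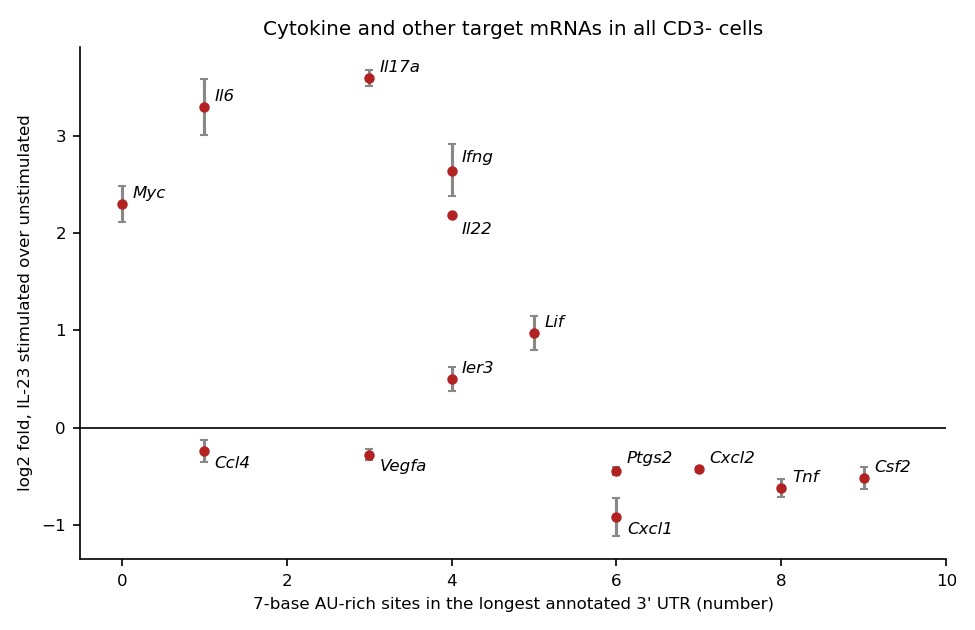
Log2 fold, IL-23 stimulated over unstimulated, of 14 measured AU-rich target mRNAs in CD3- cells (y axis) by number of TATTTAT sites in the longest annotated 3′ UTR (x axis), with exact 95% intervals of counting error. The 5 genes with 6 or more sites lie below 0, and 7 of the 9 genes with fewer sites lie above it. Il6, Ifng, Myc and Lif were measured through the IL-23 stimulated library alone, and Cxcl1 through the unstimulated library alone.

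Over all measured genes, levels did not fall steadily with site count. The median log2 fold was -0.115 with 0 sites, -0.109 with 1, -0.092 with 2 and -0.076 with 3 or more. It was lower only in the small group with 6 sites or more. The 27 genes with 6 sites or more had a median log2 fold of -0.22 and a median 3′ UTR of 3782 bases, with 14.8% lower and 3.70% higher. These 27 include the 5 named targets from which the division was chosen, with Tnf and Cxcl1 among the lower ones. Their values are therefore not a separate look at that division. Of the 324 genes with 3 or more sites, 7.72% were higher and 3.70% lower. Of the 4566 genes with 0 sites, 3.24% were higher and 3.33% lower, and their median UTR was 885 bases. UTR length moved with site number, and its part was not tested.

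Of 12 listed Regnase-1 targets, 9 were measured in CD3- cells, with 3 higher, 1 lower and a median log2 fold of -0.034. Ctla4, an inhibitory receptor, had 176 CPM in IL-23 stimulated and 15.5 CPM in unstimulated cells (11.3), and Icos, a co-stimulatory receptor, 1038 and 512 CPM (2.03). Il6 is on this list as well. Cxcl1 was the lower one. As above, Il6 and Cxcl1 were each measured through 1 library alone. Rel, an NF-κB subunit, had 267 and 361 CPM (0.740), and Nfkbiz, an NF-κB cofactor, 411 and 320 CPM (1.28). The listed targets lay on both sides of 1, and Zc3h12a mRNA was nearly level. Regnase-1 protein and mRNA decay were not measured, and a link between the nuclease and these levels was not tested. Of 17 other cytokines, 11 were measured, with Il17f, Tnfsf14 and Gzmb higher and Ltb lower, the last at 53.0 CPM in IL-23 stimulated and 98.0 CPM in unstimulated cells (0.541).

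Cytokine levels were finally compared between cells with and without a UMI of each decay gene, within a library, after thinning to 2000 UMIs. These are descriptions over cells of 1 library, and their intervals do not cover uneven spread of UMIs over cells. In IL-23 stimulated CD3- cells, Tnf stood at 55.9 CPM in cells with Zfp36 and 21.5 CPM in cells without (ratio 2.61, 2.14 to 3.16). Csf2 stood at 43.1 and 16.3 CPM (2.65) and Ifng at 28.0 and 9.22 CPM (3.03). In unstimulated CD3- cells the ratios were 2.96 for Tnf, with 106 and 35.7 CPM, 2.96 for Csf2, with 67.2 and 22.7 CPM, and 3.80 for Ifng, which rested on 13 and 34 UMIs. Tnf and Csf2 were thus found more in cells with Zfp36, in both libraries. Within classes, the Tnf ratio was 4.22 in IL-23 stimulated and 8.99 in unstimulated Ncr1+ CD3- cells, 1.72 and 1.82 in Ccr6+ CD3- cells, and 2.75 and 2.78 in CD3- cells with neither marker.

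Il22 and Il17a looked different. Il22 had a ratio of 1.06 and Il17a of 0.813 (0.753 to 0.878) between IL-23 stimulated cells with and without Zfp36, while the unstimulated ratios were 1.52 and 1.23. For Btg1, Il17a stood at 323 CPM in IL-23 stimulated cells with and 174 CPM in those without (1.86), and Tnf at 26.6 and 44.4 CPM (0.598, 0.438 to 0.836). In unstimulated cells the Btg1 ratios were 1.02 for Il17a and 1.09 for Tnf. Zc3h12a ratios in IL-23 stimulated cells were 0.996 for Il22 and 0.944 for Il17a, and 1.29 and 1.52 in unstimulated cells. The heat map of these ratios shows Zfp36 as the only one of the 6 genes with ratios above 2 for Ifng, Csf2 and Tnf alike in both libraries.

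**Figure D5:**
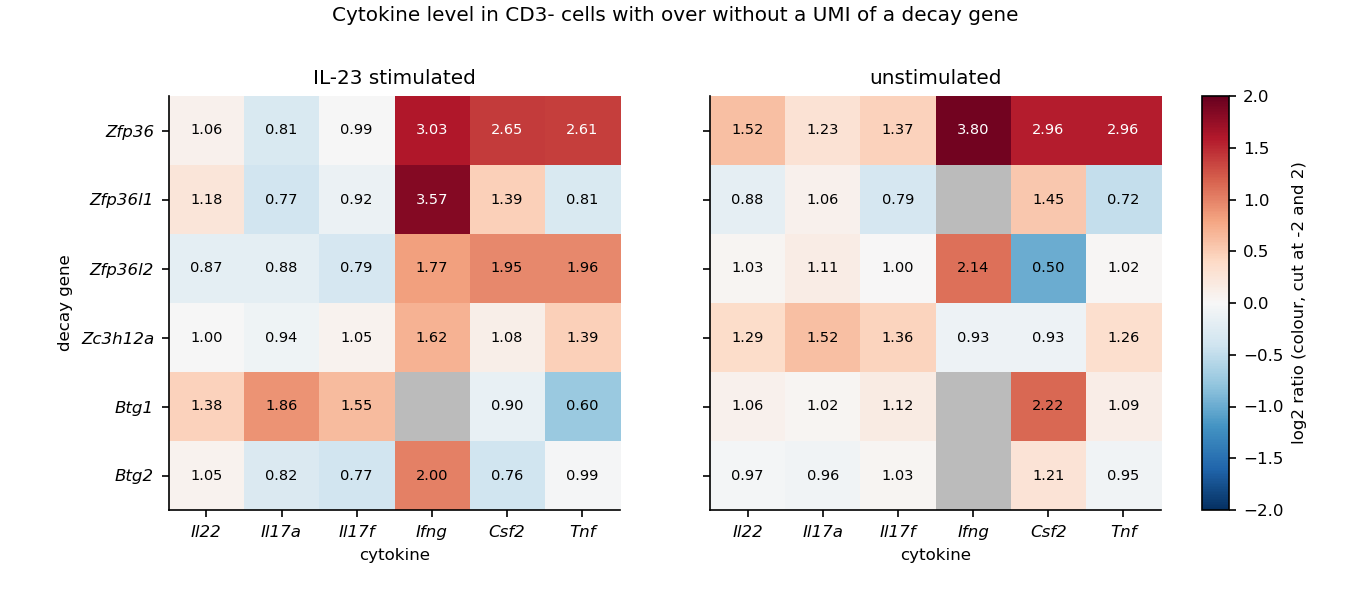
Ratio of the CPM of 6 cytokines (x axis) in thinned CD3- cells with over without a UMI of each decay gene (y axis), for IL-23 stimulated (left) and unstimulated (right) cells. Numbers are ratios, colour is their log2, and grey marks ratios with fewer than 10 UMIs on either side; Zfp36 ratios for Csf2 and Tnf are 2.65 and 2.61 on the left and 2.96 and 2.96 on the right.

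Patterns over the 10 points of 5 classes by 2 libraries were compared as Pearson r of log2(CPM + 1) among 5339 genes with a mean of at least 20 CPM. The points share 2 libraries and their depth, so r is a description. Zfp36l1 was most like Fosl2 (0.98), an AP-1 factor, Stat3 (0.98), which carries the IL-23 receptor signal, and Nabp1 (0.96). Stat3 had 1155 CPM in IL-23 stimulated and 905 CPM in unstimulated Ncr1+ CD3- cells, and 736 and 458 CPM in Ccr6+ CD3- cells. Zc3h12a was most like Slc35b2, Sdc4 and Rela (0.99 each), the last the gene of an NF-κB subunit. Sdc4, a cell surface proteoglycan, had 883 CPM in IL-23 stimulated and 995 CPM in unstimulated Ccr6+ CD3- cells, against 97.5 and 109 CPM in Cd3e+ Trdc+ cells.

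Btg1 was most like Ctsb (0.97), Arpc1b (0.96) and Prdm1 (0.95), the gene of the repressor Blimp-1. Prdm1 had 152 CPM in IL-23 stimulated and 26.2 CPM in unstimulated Ncr1+ CD3- cells, and 28.6 and 3.91 CPM in Ccr6+ CD3- cells. Zfp36 was most like Gm10125 (0.96), Elavl1 (0.94) and Rbm3 (0.91), a cold-inducible RNA-binding protein gene. Zfp36l2 was most like Fam160b1, 2810001G20Rik and Sap30l (0.98 each), and Btg2 like Nrip1 (0.96), Arap2 (0.93) and Hpcal1 (0.93). Among the 6 genes themselves, Zfp36l1 and Btg2 had r of 0.92, and Zfp36l2 and Zc3h12a -0.86.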

How the data were processed

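Droplet RNA counts of 2 libraries, 1 IL-23 stimulated and 1 unstimulated, were used as grouped by the labels. The authors deposited whole-number UMI counts per gene and barcode, not normalized. Per the submitters' processing notes these came from Cell Ranger 3.1.0 on mm10, whereas the file headers name cellranger 6.0.0, and no source used here gives the annotation or the rule for calling cells. Doublets were not called.

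Sums of counts per class were scaled to CPM (Python 3.11.15, numpy 2.4.6, pandas 2.3.3), with exact Poisson, Clopper-Pearson and conditional binomial 95% intervals (scipy 1.17.1). Depth per class was 941325 to 56069151 UMIs. Intervals cover counting error and not differences between animals or captures. A gene was measured when 1 library or both reached 10 CPM and the libraries together held 20 UMIs or more. Cells were thinned with seed 7 for shares. TMM factors came from edgeR 4.0.16 (R 4.3.3), without a count test, since 1 library a group allows none. The calling step was tested on simulated data. UTR sites were read from GENCODE M21 on GRCm38 and promoters from RefSeq.

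The 6 genes and all lists were chosen with earlier results of these data known. Of each list, the text names up to 4 genes per direction past 1.5-fold in CD3- cells, 6 cytokines always, and the 3 genes most alike in pattern to each member. Further partners and targets were named after their values were seen. Alternatives tried were other cell filters, TMM scaling, totals without Il22, mitochondrial and ribosomal genes, cell means, markers at 2 UMIs, cells with both markers, cells without Fos and Egr1, and removal of deep cells or of cells with other types' markers.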

Additional observations from a re-analysis of the deposited data

Results flagged for a closer look

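The fold of Zfp36l2, IL-23 stimulated over unstimulated, lay below 1 in some cell classes and above 1 in another. It was 0.611 in Ncr1+ CD3- cells, 0.852 in Ccr6+ CD3- cells, 0.722 in CD3- cells with neither marker and 0.827 in Cd3e+ Trdc+ cells, but 1.36 in Cd3e+ Trac+ cells. The counting intervals of the Ncr1+ and Cd3e+ Trac+ folds did not overlap. The Cd3e+ Trac+ fold rests on 158 UMIs in each library, from 99 IL-23 stimulated and 163 unstimulated cells. Thinned to 2000 UMIs, 17.3% of these IL-23 stimulated and 18.1% of these unstimulated cells held a Zfp36l2 UMI. Thinned to 1000 UMIs the shares were 15.2% and 6.75%. With 1 library per group the difference between classes was not tested.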

How the results depend on the processing

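No paired analysis was possible because each group is 1 library, and for the same reason no library could be left out. Of 324 values (6 genes, 6 classes, 9 settings), 236 stayed within the counting interval of the value reported and 88 moved outside it. None that was past 1.5-fold changed direction in these settings. Removing cells over 3 times the median UMIs, or using 200 genes and 20% mitochondrial UMIs, moved 0 of 36 values each. Removing cells with markers of other cell types moved 13 of 36, and 23 stayed within the interval.

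TMM scaling gave 467 higher and 297 lower genes in Ncr1+ CD3- cells (61.1% higher, against 41.7%), 279 and 163 in Ccr6+ (63.1%, against 40.0%), 352 and 167 in CD3- cells with neither marker (67.8%, against 51.3%), 715 and 639 in Cd3e+ Trdc+, 724 and 747 in Cd3e+ Trac+ (49.2%, against 38.5%), and 346 and 150 in all CD3- cells (69.8%, against 52.5%). The construction of this scaling lifts every log2 fold of a class by 0.061 to 0.11.

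Markers at 2 UMIs gave 776 lower genes of 6897 measured in Ncr1+ and 591 of 7269 in Ccr6+ CD3- cells. In Ncr1+ cells Zfp36 (1.47) and Zfp36l2 (0.702) then fell short of the 1.5-fold size, while Btg1 stayed past it. Cells without Fos and Egr1 gave 795 lower genes of 7030 in Ncr1+, 559 of 7289 in Ccr6+ and 392 of 7139 in all CD3- cells. Zfp36l2 then fell short in Ncr1+ cells (0.716) and was lower in Ccr6+ cells (0.627). In Ccr6+ cells Btg2 was then no longer higher (1.46), while Btg1 was (1.53). In Cd3e+ Trac+ cells 4 members were then higher, Zfp36l1 (1.60), Zfp36l2 (1.56), Zc3h12a (1.78) and Btg1 (1.58), while Zfp36 fell short at 1.32, beside 627 of 6471 measured genes that were higher there. With cell means Zfp36l2 fell short of the size in Ncr1+ cells (0.683), and Zfp36 in Cd3e+ Trdc+ cells (1.43). Zfp36 also fell short in Cd3e+ Trdc+ cells when cells with both markers were counted in both classes (1.41). The causes were not tested.

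Without a filter on low genes, higher and lower calls were 2640 and 3187 in Ncr1+, 2643 and 3139 in Ccr6+, 3210 and 3629 with neither marker, 2693 and 2924 in Cd3e+ Trdc+, 2173 and 3243 in Cd3e+ Trac+, and 3225 and 3782 in all CD3- cells, through genes of few UMIs. With the 9-base site 8.61% of genes in CD3- cells held 1 or more. Depth limits the T cell classes most, with 99 to 232 cells a library.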
